A study of Homo sapiens with 14 samples.

Results

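AP-1 is a transcription factor built from pairs of leucine zipper proteins of the FOS, JUN and ATF families. FOS proteins bind DNA mainly as partners of JUN proteins, whereas JUN proteins also pair with each other. Most of these genes, with EGR1 and DUSP1, are immediate early genes: growth factors, stretch and stress switch them on through MAP kinases and preformed factors, before any new protein is made, and their transcripts are short-lived. In cartilage, AP-1 is known for inducing matrix proteases, and FOSL2 and JUNB are known for roles in growth plate and bone development. Handling of tissue before lysis also induces them.

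The 10 genes described here are FOS, FOSB, FOSL1, FOSL2, JUN, JUNB, JUND, ATF3, EGR1 and DUSP1, chosen by name and matched to the files by Ensembl identifier. All 10 were found among the 60587 genes of each table, and all 10 passed the filter on low counts, which left 17838 genes. They were measured in cartilage pellets grown from WA01, a single human embryonic stem cell line, by RNA sequencing of whole pellets kept in chondrogenic medium for 21 days (4 libraries), 30 days (5 libraries) or 45 days (5 libraries). The groups share the line and the medium and differ in time only as far as the labels say. No source used here states if replicates were separate cultures, or how pellets were handled before lysis. The p-values therefore cover only the spread among these libraries, part of which may be technical.

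Libraries held 18183776 to 33660704 expected counts. Summed over 16 chondrocyte markers, the level was 49249.9 to 63573 CPM (reads of a gene relative to the library's size after TMM scaling) at day 21, 115428 to 268370 CPM at day 30 and 209697 to 329027 CPM at day 45. Abundant genes weigh most in such sums. From day 30 to day 45 edgeR called 3 of the 16 higher, 6 lower and 7 not (27.6% and 28.7% of all genes). Hypertrophic chondrocyte markers summed to 153 to 238, 455 to 564 and 1685 to 4259 CPM on the 3 days (7 of 9 passed the filter). Of these 7, edgeR called 5 higher and 2 lower at day 45 than at day 21 (27.1% and 30.5% of all genes). Lists with a lower mean at day 45 than at day 21 were smooth muscle (means 431, 342 and 174 CPM) and neuron and glia (316, 351 and 166 CPM). So were epithelium (66.5, 44.1 and 52.4 CPM) and pluripotent stem cell (16.5, 5.22 and 1.39 CPM, 2 of 6 markers passing the filter). Endothelium was too (265 to 316, 224 to 295 and 144 to 181 CPM), with 3 of 8 markers passing and PECAM1, CDH5 and CLDN5 below 0.1 CPM on average. From day 21 to day 45 edgeR called 1 smooth muscle marker higher and 2 lower. The calls were 1 and 6 for neuron and glia, 2 and 1 for epithelium, 0 and 2 for pluripotent stem cell, and 1 and 2 for endothelium. Of 9 blood markers 7, PTPRC among them, averaged below 0.1 CPM, although the list summed to between 1.32 and 2.41 CPM in the day 21 libraries and between 45.5 and 65.2 CPM in those of day 45. Day 30 replicates 3 to 5 differed from the other libraries in that short transcripts were relatively high (Spearman rho of the deviation with gene length across genes -0.52 to -0.43, against -0.07 to 0.26 elsewhere). For day 45 replicate 1 the title and the treatment label disagree, the latter giving 30 days. It was kept with day 45 by its title, and counts with the other placement are given below.

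Promoter sequence was available for 9 of the 10 genes (RefSeq, GRCh38.p14). The 250 bases before the start were searched on both strands for the AP-1 site TGACTCA, the cyclic AMP response element TGACGTCA, the core TGACG (which lies inside that element), the CArG box bound by serum response factor, and TATAAA. Shares of all genes are over the 27305 genes of the table, some with several windows. None of the 9 genes held TGACTCA, against 5.19% of all genes. TGACG stood in 8 of the 9, against 24.9% of all genes, and TATAAA in 5 of the 9, against 13%. TGACGTCA stood in DUSP1 and JUND (2.03% of all genes) and CArG boxes, of the 9, in EGR1 (1.44% of all genes). These matches are letters in a window and not measured binding sites. Shown first are JUNB and DUSP1, which edgeR called higher at both steps. Then come EGR1, which edgeR called lower at day 30 than at day 21, and JUND, with the smallest edgeR change from day 21 to day 45. Every match is in capitals (CGTCA is TGACG on the other strand).
JUNB, chr19:12791236-12791485, plus strand: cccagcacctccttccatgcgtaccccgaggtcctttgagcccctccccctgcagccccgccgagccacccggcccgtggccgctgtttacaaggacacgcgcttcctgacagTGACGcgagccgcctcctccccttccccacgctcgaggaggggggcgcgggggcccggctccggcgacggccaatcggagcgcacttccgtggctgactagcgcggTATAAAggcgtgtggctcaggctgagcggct
DUSP1, chr5:172771196-172771445, minus strand: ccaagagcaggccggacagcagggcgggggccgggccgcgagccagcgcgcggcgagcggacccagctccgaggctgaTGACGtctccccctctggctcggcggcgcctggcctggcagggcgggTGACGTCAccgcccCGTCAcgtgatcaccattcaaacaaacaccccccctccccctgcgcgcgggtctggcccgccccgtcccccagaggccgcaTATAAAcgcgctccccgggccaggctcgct
EGR1, chr5:138465229-138465478, plus strand: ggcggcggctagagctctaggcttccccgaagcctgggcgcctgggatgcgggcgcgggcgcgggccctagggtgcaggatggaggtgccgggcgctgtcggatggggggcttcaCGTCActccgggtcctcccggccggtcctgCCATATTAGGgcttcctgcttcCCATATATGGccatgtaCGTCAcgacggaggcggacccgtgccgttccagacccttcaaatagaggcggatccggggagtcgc
JUND, chr19:18281623-18281872, minus strand: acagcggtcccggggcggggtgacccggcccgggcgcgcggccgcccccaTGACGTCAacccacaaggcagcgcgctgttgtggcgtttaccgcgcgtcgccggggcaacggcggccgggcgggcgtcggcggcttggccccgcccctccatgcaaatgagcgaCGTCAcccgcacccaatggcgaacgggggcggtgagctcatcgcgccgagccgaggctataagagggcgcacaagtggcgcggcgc
In JUNB the core TGACG begins 137 bases and TATAAA 31 bases before the start. In FOSB, which is not shown, they begin at 60 and 30 bases. In FOS they begin at 64 and 33 bases before the RefSeq start, which lies inside the gene as GENCODE draws it. The windows of FOSL2 and JUN lie wholly inside the gene as GENCODE draws it. So does the ATF3 window that holds TATAAA, which begins 230 bases before that RefSeq start. Matches in these windows are part of the counts above, although the sequence is within the gene. DUSP1 holds TGACGTCA 125 bases before its start. EGR1 holds CCATATTAGG and CCATATATGG, 105 and 83 bases before its start.

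Most of the genes rose between day 21 and day 45. By edgeR's quasi-likelihood F-test, 9 of the 10 were higher at day 45 and none was lower (also 0 lower at an unadjusted p below 0.05), beside 57.7% of all genes tested that were called (27.1% higher, 30.5% lower). The median log2 fold change of the 10 was 1.93, against -0.05 over all genes tested. From day 21 to day 30, FOS, FOSB, FOSL1, JUNB, ATF3 and DUSP1 rose, EGR1 fell and 3 did not pass (54.4% of all genes called, 27.2% higher and 27.1% lower). From day 30 to day 45, 9 rose and JUND did not pass (56.3% of all genes called, 27.6% higher and 28.7% lower). The later change exceeded the earlier one in FOSL2, JUN, EGR1 and DUSP1 (4 of the 10, beside 52.7% of all genes called, 25.3% higher and 27.5% lower). In whole pellets, more cells of a kind and more RNA per cell cannot be told apart.

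The libraries of day 45 lay wholly above those of day 21 in 8 of the 10 genes (51.5% of all genes did not overlap, 25.3% upwards and 26.2% downwards). Those of day 30 lay above day 21 in 6 (42.4% of all genes did not overlap, 20% upwards and 22.4% downwards), and those of day 45 above day 30 in 9 (38.3%, with 19.8% upwards and 18.6% downwards). On the log2(TPM + 1) scale, where TPM is the deposited level per transcript length, the median of all genes moved by -0.34 from day 21 to day 45 and by -0.35 to day 30. There limma called 8 of the 10 genes higher at day 45 than at day 21 and none lower (60.9% of all genes called, 12% higher and 48.9% lower). At day 30 it called 4 higher and 4 lower (60.7%, with 10% higher and 50.6% lower), and from day 30 to day 45 it called 9 higher (50.5%, with 27.1% higher and 23.3% lower). The later change exceeded the earlier in 8 on that scale (54.3%, with 41.2% higher and 13.1% lower). With day 45 replicate 1 placed at day 30, as its treatment label has it, edgeR called 5 of the 10 higher at day 45 than at day 30 and 0 with a larger later change. Of all 17838 genes it then called 6466 and 6841 in either direction, against 10051 and 9404 with that library at day 45. Without that library the counts of the 10 were 9 and 4, beside 9513 and 9171 of 17787 genes called in either direction.

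**Figure D1:**
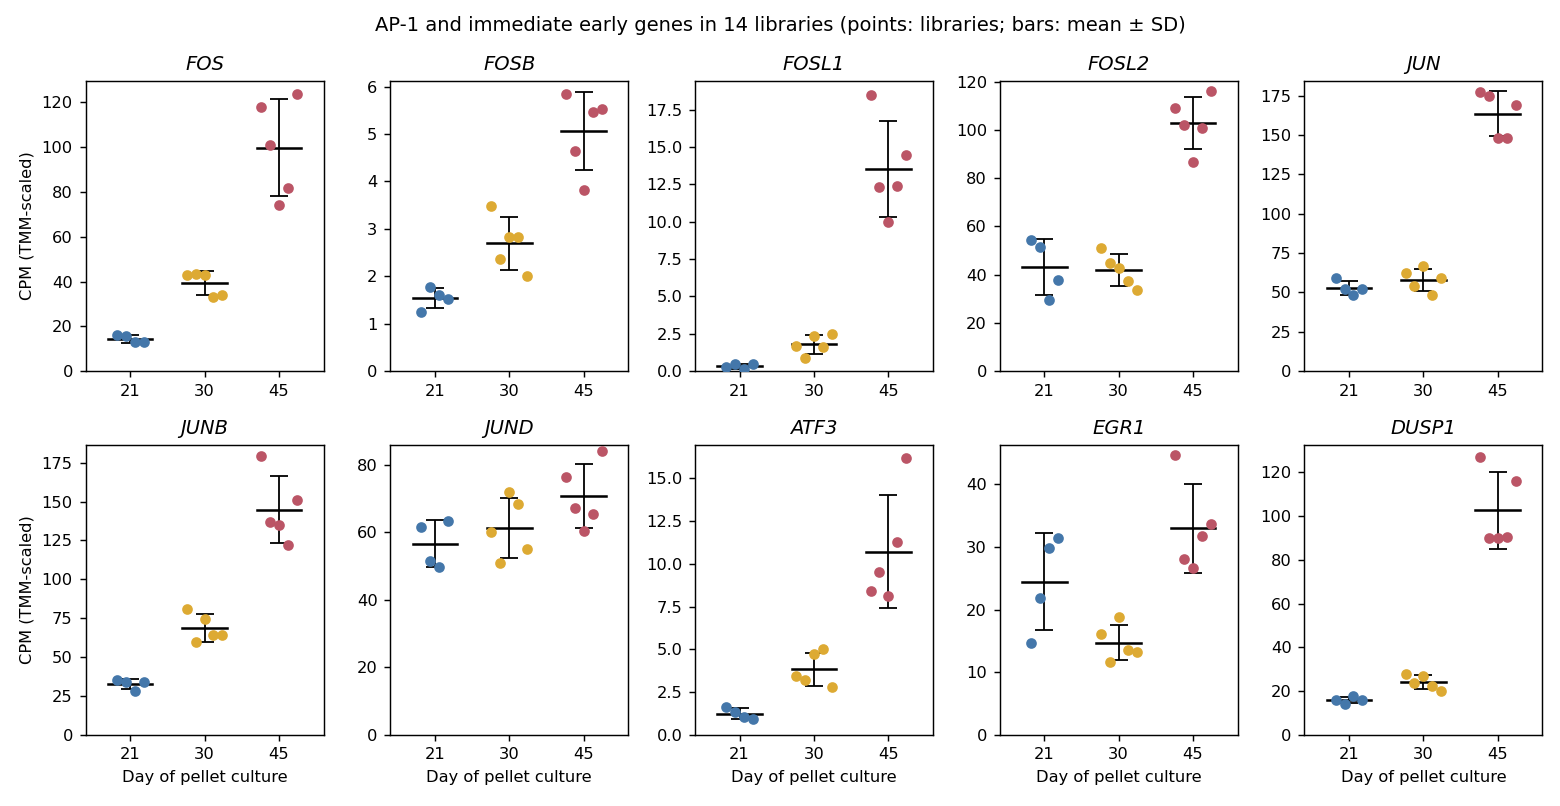
Level of each gene (CPM after TMM scaling, linear axis from 0) by day of culture. Points are libraries (4, 5 and 5), long bars the mean and capped bars the SD. FOS, FOSB, FOSL1, JUNB, ATF3 and DUSP1 step up at both later days, FOSL2 and JUN at day 45 (in TPM both are lower at day 30 than at day 21 by limma), EGR1 is lowest at day 30, and JUND overlaps between all days.

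FOS (ENSG00000170345; chromosome 14, 75278774 to 75282230, plus strand, GRCh38), the founding member of the family, stood at 16.3, 15.7, 12.8 and 12.8 CPM in the 4 libraries of day 21. It reached 42.9, 43.4, 43, 33 and 34.1 CPM at day 30 and 118, 101, 74.4, 81.7 and 124 CPM at day 45. Every library of a later day lay above every library of an earlier one. The log2 fold change was 1.45 ± 0.15 (SE) for the first step (edgeR adjusted p = 7.16e-07) and 1.34 ± 0.14 for the second (9.38e-07), and 2.79 ± 0.16 over both, a 6.92-fold rise. The difference between the steps was not called (-0.10 ± 0.25, edgeR adjusted p = 0.74).

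FOSL1 (ENSG00000175592; chromosome 11, 65892049 to 65900573, minus strand), which encodes FRA1, had the largest fold change of the 10. Its expected counts were 9, 18, 5 and 16 at day 21, or 0.25, 0.456, 0.129 and 0.453 CPM. At day 30 it was at 1.65, 0.899, 2.32, 1.59 and 2.46 CPM, and at day 45 at 18.5, 12.3, 10, 12.4 and 14.5 CPM. The libraries of the days did not overlap. It rose by 2.47 ± 0.34 (SE) and then by 2.91 ± 0.26 on the log2 scale, and by 5.38 ± 0.33 in all (edgeR adjusted p = 4.28e-10). The low counts at day 21 limit the precision of that total.

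FOSL2 (ENSG00000075426; chromosome 2, 28392448 to 28417312, plus strand), which encodes FRA2, was called by edgeR at the later step and not at the earlier. It lay at 54.2, 51.6, 29.7 and 37.7 CPM at day 21, at 50.9, 45, 42.6, 37.3 and 33.7 CPM at day 30, and at 109, 102, 86.7, 101 and 116 CPM at day 45. Days 21 and 30 overlapped, and day 45 lay above both. The first change was -0.05 ± 0.16 (SE; edgeR adjusted p = 0.82) and the second 1.30 ± 0.15 (2.95e-06). The later change exceeded the earlier one by 1.34 ± 0.27 (edgeR adjusted p = 5.82e-04). That call ended with an offset for gene length (0.35, adjusted p = 0.286) and without day 30 replicates 3 to 5 (0.95, 0.0771). FOSL2 is the longest of the 10, at a mean of 6359 bases. With the length offset its first change was 0.48 (adjusted p = 0.0151), and on the log2(TPM + 1) scale it was -0.42 (limma adjusted p = 0.0312), where the median of all genes was -0.35.

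FOSB (ENSG00000125740; chromosome 19, 45467995 to 45475179, plus strand), the close relative of FOS, was scarce throughout, with 1.25, 1.77, 1.6 and 1.53 CPM at day 21. It had 3.48, 2.36, 2.82, 2.83 and 2 CPM at day 30, and 5.85, 4.65, 3.82, 5.47 and 5.52 CPM at day 45. In CPM the days did not overlap, whereas in TPM day 30 overlapped both other days. It rose at each step in edgeR, by 0.81 ± 0.19 (SE) and 0.90 ± 0.18. On log2(TPM + 1) its first step was 0.17 and did not pass (limma adjusted p = 0.371).

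The JUN genes share a feature that the choice by name did not use: in the annotation each of the 3 consists of 1 exon block, whereas the other genes have 2 to 7. JUN (ENSG00000177606; chromosome 1, 58780788 to 58784327, minus strand), the main partner of FOS, stood at 59.3, 52, 48.6 and 52.2 CPM at day 21 and at 62.4, 54, 66.5, 48.3 and 59.1 CPM at day 30. At day 45 it was at 177, 175, 148, 148 and 169 CPM, above every earlier library. The second step was 1.49 ± 0.10 (SE; edgeR adjusted p = 8.49e-09). The first was 0.13 ± 0.10 and did not pass (0.294), and it was -0.32 on the log2(TPM + 1) scale (limma adjusted p = 0.0189), where the median of all genes was -0.35. With the length offset it was 0.32 (edgeR adjusted p = 0.0157). The later change of JUN exceeded the earlier one by 1.36 ± 0.18 (edgeR adjusted p = 1.05e-05).

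JUNB (ENSG00000171223; chromosome 19, 12791496 to 12793315, plus strand), a weaker activator than JUN that can oppose it, rose at both steps. It was at 35.2, 34.1, 27.9 and 33.8 CPM at day 21, 81.1, 59.4, 74.6, 64.4 and 64.4 CPM at day 30, and 179, 137, 135, 122 and 151 CPM at day 45. The days did not overlap. Both steps were 1.07 on the log2 scale (SE 0.12 and 0.11; edgeR adjusted p = 1.57e-06 and 1.03e-06). On log2(TPM + 1) they were 0.59 and 1.08, and the second exceeded the first by 0.49 (limma adjusted p = 0.0443). HOOK2 overlaps JUNB on the opposite strand and was listed at 14.17 to 76.14 TPM. The library kit does not mark strand, so reads of the overlap cannot be told apart.

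JUND (ENSG00000130522; chromosome 19, 18279760 to 18281622, minus strand), the member that many resting cells express, changed least. It was at 61.7, 51.6, 49.7 and 63.5 CPM at day 21, 60.2, 51, 72.1, 68.5 and 55.2 CPM at day 30, and 76.3, 67.4, 60.5, 65.4 and 84.3 CPM at day 45. All 3 days overlapped. Its change from day 21 to day 45 was 0.32 ± 0.12 (SE; edgeR adjusted p = 0.0327). It was in the opposite direction on the log2(TPM + 1) scale (-0.20, limma adjusted p = 0.174), where the median of all genes was -0.34. From day 21 to day 30 the change was 0.12 ± 0.12 (edgeR adjusted p = 0.438), and -0.42 on log2(TPM + 1) (limma adjusted p = 0.00906), where the 2 days did not overlap. The median of all genes on that scale was -0.35. In edgeR the call of day 45 against day 21 ended without day 21 replicate 2 (adjusted p = 0.0987) or 3 (0.105), without day 45 replicate 1 (0.068) or 5 (0.0925), without the low-count filter (0.0649), with replicate number as a block (0.064) and with day 45 replicate 1 placed at day 30 (0.106).

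**Figure D2:**
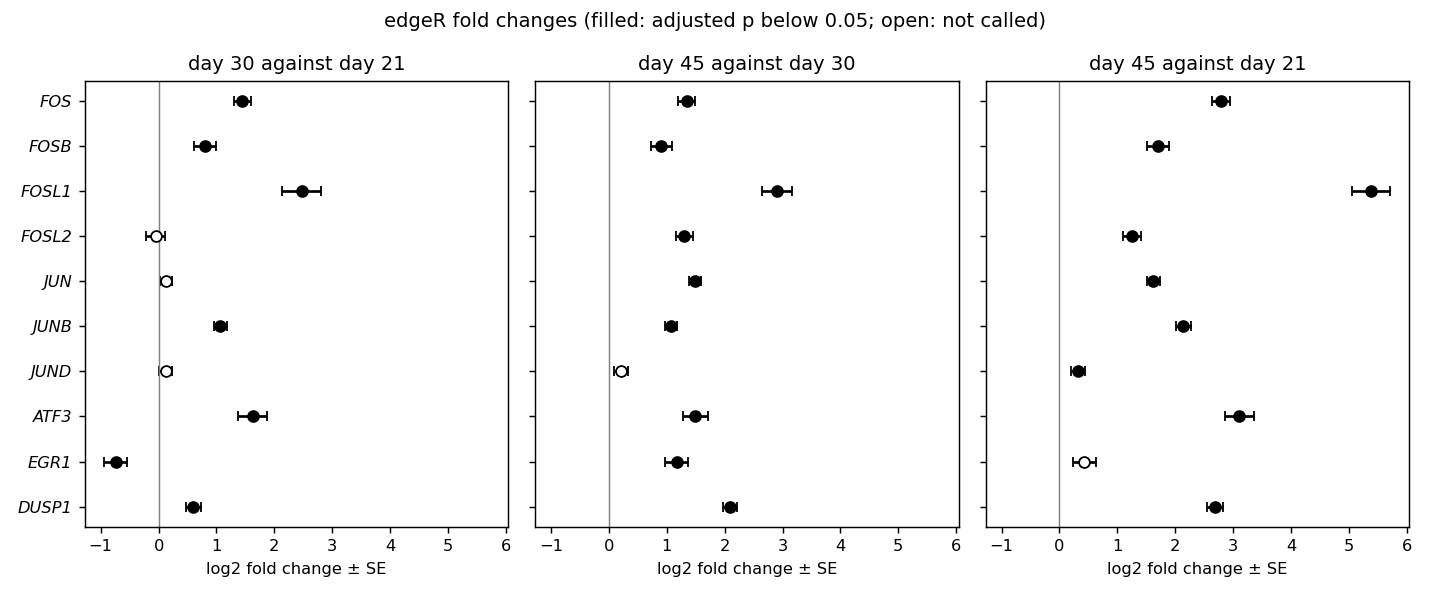
Log2 fold change of each gene (horizontal axis) with its SE in each comparison of days, from 1 edgeR fit to all 14 libraries. Filled points passed an adjusted p below 0.05. FOSL1 lies farthest to the right, at 5.38 from day 21 to day 45, and EGR1 is the gene to the left of 0 among those called at day 30, at -0.74.

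ATF3 (ENSG00000162772; chromosome 1, 212565334 to 212620777, plus strand), a stress-induced zipper protein that often represses, was at 1.64, 1.32, 1.03 and 0.935 CPM at day 21. It was at 3.41, 3.2, 4.72, 5.01 and 2.77 CPM at day 30 and at 8.4, 9.53, 8.12, 11.3 and 16.2 CPM at day 45. The days did not overlap. Its steps were 1.63 ± 0.25 and 1.49 ± 0.22 (SE), and the whole rise was 8.65-fold (edgeR adjusted p = 1.42e-08).

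EGR1 (ENSG00000120738; chromosome 5, 138465490 to 138469315, plus strand), a zinc finger factor and no AP-1 subunit, had another course. It stood at 14.6, 21.9, 29.9 and 31.5 CPM at day 21, fell to 16.1, 11.7, 18.8, 13.5 and 13.3 CPM at day 30 and was at 44.7, 28.1, 26.6, 31.8 and 33.7 CPM at day 45. Day 21 replicate 1 lay within the day 30 range in CPM, whereas the TPM of days 21 and 30 did not overlap, and day 45 lay above day 30 in all libraries. The changes were -0.74 ± 0.20 (SE; edgeR adjusted p = 0.006) and then 1.17 ± 0.20 (1.08e-04), and their difference was 1.90 ± 0.36 (3.24e-04). Day 45 against day 21 did not pass (0.43 ± 0.20, edgeR adjusted p = 0.0801). It passed without day 21 replicate 3 (0.54, 0.0489) or 4 (0.58, 0.0312) and with the length offset (0.51, 0.0466). The drop at day 30 was not called without day 30 replicates 3 to 5 (-0.81, adjusted p = 0.0596), which left that day with 2 libraries. With day 45 replicate 1 placed at day 30, the drop was -0.31 (edgeR adjusted p = 0.458). In that setting the later rise was 0.61 (0.149) and the difference of the steps 0.92 (0.202), neither called.

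DUSP1 (ENSG00000120129; chromosome 5, 172768090 to 172771195, minus strand), a phosphatase that switches MAP kinases off, rose mostly after day 30. It was at 16.1, 14.3, 17.6 and 15.8 CPM at day 21, at 28, 23.6, 26.9, 22.3 and 20.1 CPM at day 30, and at 127, 90, 90, 90.5 and 116 CPM at day 45. The days did not overlap in CPM, whereas days 21 and 30 overlapped in TPM. Its steps were 0.60 ± 0.13 and 2.09 ± 0.12 (SE), and the second exceeded the first by 1.49 ± 0.22 (edgeR adjusted p = 3.21e-05). The first step was not called on the log2(TPM + 1) scale (0.12, limma adjusted p = 0.479).

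Per transcript length, the ranking of the genes changed with time. At day 21 JUND was the most abundant, at 109.8 ± 14.6 TPM (SD, n = 4), above JUNB at 41.4 ± 2.29 and JUN at 35.6 ± 2.01, which touched each other. DUSP1, EGR1, FOS and FOSL2 followed at 18.2, 17.2, 17.1 and 14.1 TPM with overlapping neighbours. At day 45 JUNB was the most abundant, at 134 ± 15.8 TPM (SD, n = 5), and its libraries did not overlap those of JUND at 95.6 ± 13.8. FOS, DUSP1 and JUN stood next at 89.8 ± 21.8, 85.7 ± 12.3 and 80.6 ± 6.54 TPM, with neighbours that overlapped. FOSB was the least abundant at day 45, at 2.52 ± 0.541 TPM, and FOSL1, the least abundant at day 21, at 0.545 ± 0.276 TPM, had reached 15.7 ± 3.57.

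The make-up of both families shifted with these changes. JUND made up 58.6% ± 3.1 of the summed TPM of the JUN genes at day 21 (SD, n = 4), 47.3% ± 2.81 at day 30 and 30.7% ± 2.47 at day 45 (SD, n = 5 each). JUNB went the other way, from 22.2% ± 1.52 to 36.3% ± 2.08 and 43.3% ± 2.91. In the FOS family, FOSL2 took 42.5% ± 3.28 at day 21, 20.5% ± 1.55 at day 30 and 19.5% ± 2.93 at day 45, and FOSL1 went from 1.66% ± 0.834 to 4.53% ± 2.04 and 11.7% ± 0.978. FOS itself made up 52.4% ± 3.12, 72.1% ± 2.58 and 66.8% ± 3.3. The summed TPM of the JUN family was 5.77 ± 0.871 times that of the FOS family at day 21, 3.53 ± 0.371 times at day 30 and 2.37 ± 0.295 times at day 45. The ratio lay between 4.97 and 6.93, between 3.01 and 3.97, and between 2.06 and 2.82 in the libraries of the 3 days, with no overlap. These shares describe transcripts, and proteins and dimers were not measured.

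**Figure D3:**
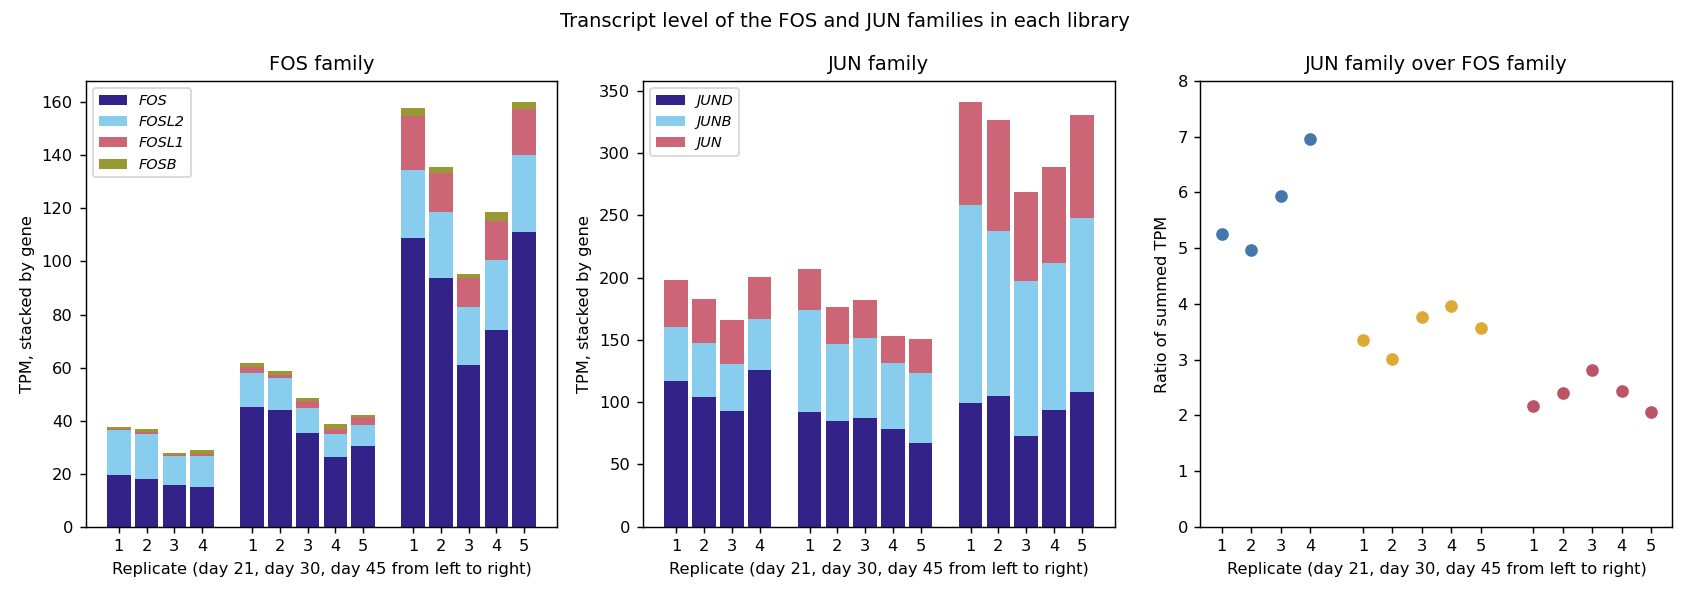
Summed TPM of the FOS family (left) and the JUN family (middle), stacked by gene, and the ratio of the sums (right), for each library in the order of the days. The JUND part averages 109.8, 82 and 95.6 TPM on the 3 days while JUNB goes from 41.4 to 134 TPM, and the ratio lies between 4.97 and 6.93 at day 21 and between 2.06 and 2.82 at day 45.

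Within a day, libraries differed in the level of the genes as a group. At day 45 replicates 1 and 5 were above the day's mean in 9 and 10 of the 10 genes, with a median deviation of 0.24 and 0.16 on the log2 scale. Replicate 3 was below the mean in all 10, with a median of -0.26. The exception in replicate 1 was ATF3, at -0.30. At day 30, replicate 3 was above the mean in 10 of the 10 genes and replicates 2 and 5 in 2 each. Of all genes, 50.5%, 51.3% and 51.1% were above the mean in day 30 replicates 3, 2 and 5. The 31 other immediate early genes tested leaned the same way, with 25, 26 and 4 of 31 above the mean in day 45 replicates 1, 5 and 3, beside 47.6%, 54.6% and 49.5% of all genes. In day 30 replicates 3, 2 and 5 they numbered 25, 8 and 9 of 31. Of the 13 heat shock genes, 10, 3 and 4 were above the mean in day 30 replicates 3, 2 and 5, as with the 10 genes. At day 45 they were 1, 11 and 9 of 13 in replicates 1, 5 and 3, so replicates 1 and 3 stood the other way round. Their part in these deviations was not tested.

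**Figure D4:**
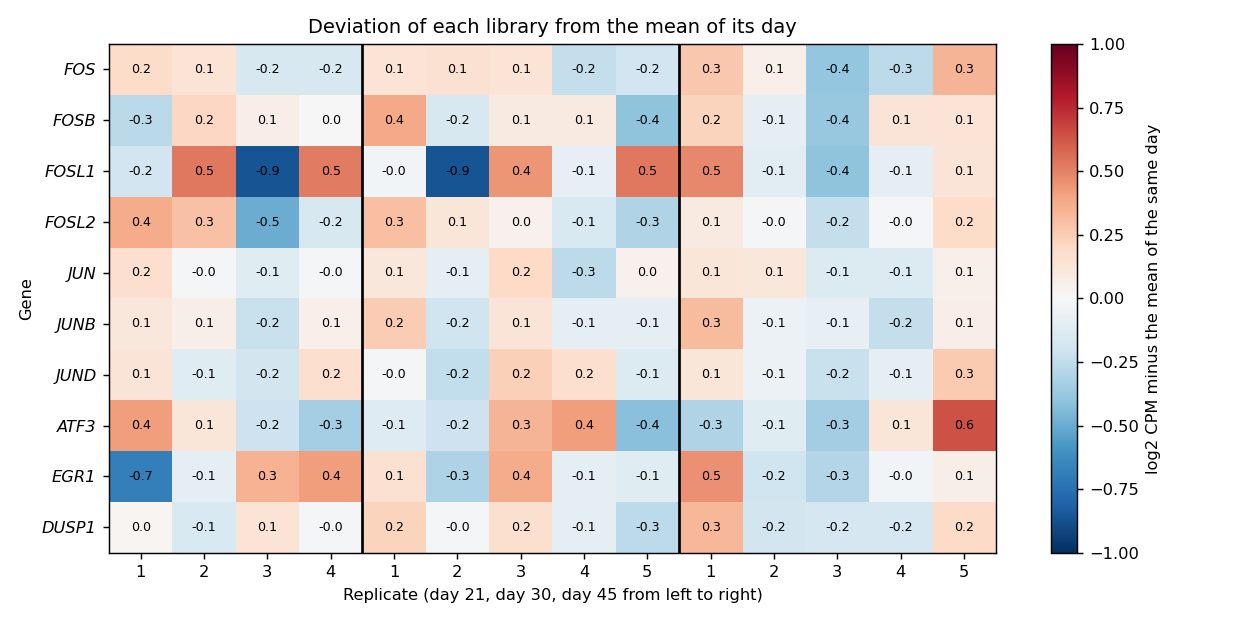
Deviation of each library (columns, by day and replicate) from the mean log2 CPM of its day, for each gene (rows); red is above and blue below. Day 45 replicate 3 is below 0 in every gene and day 45 replicate 5 above it, and the widest deviations are those of FOSL1 at days 21 and 30.

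Other genes of the same circuits were described by lists, with levels as the mean CPM ± SD over the 4, 5 and 5 libraries of days 21, 30 and 45. Of 31 other immediate early genes tested, 18 were higher, 3 lower and 10 not called at day 45 against day 21. Of all genes, 27.1% were called higher and 30.5% lower. On log2(TPM + 1) 14 of the list were higher and 8 lower, beside 12% and 48.9% of all genes. By edgeR 10 rose and 8 fell from day 21 to day 30 (median -0.10), beside 27.2% and 27.1% of all genes. From day 30 to day 45, 26 rose and 5 did not pass (median 0.83, against -0.04 over all genes). At that step 27.6% of all genes rose and 28.7% fell. GADD45A, a growth arrest gene, rose from 4.64 ± 0.684 to 16.8 ± 2 and 42.2 ± 2.85 CPM. ZFP36, which encodes the mRNA-destabilising protein tristetraprolin, rose from 10.9 ± 0.657 to 21.8 ± 2.66 and 50.1 ± 10.4 CPM. EGR3, a relative of EGR1, went from 2.59 ± 0.843 to 0.364 ± 0.174 CPM by day 30 (log2 fold change -2.79 ± 0.36, edgeR adjusted p = 5.09e-06) and was at 0.627 ± 0.209 CPM at day 45. IER5 went from 26.5 ± 1.03 to 13.1 ± 1.35 and back to 20.8 ± 1.54 CPM, lowest at day 30 as EGR1 was.

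Of 22 other basic leucine zipper genes tested, 15 rose, 1 fell and 6 did not pass from day 21 to day 45 (median 0.58). Of all genes, 27.1% rose and 30.5% fell. On the log2(TPM + 1) scale 9 of the list rose and 3 fell, beside 12% and 48.9% of all genes. CEBPD, a factor of the C/EBP family, rose from 3.47 ± 0.18 to 16.3 ± 3.55 and 55.5 ± 22.9 CPM. DDIT3, the stress factor CHOP, rose by 2.66 ± 0.17 (SE) by day 30 and then by 0.32 ± 0.14, which did not pass (edgeR adjusted p = 0.0645). MAFF, a small MAF protein, rose by 0.82 ± 0.15 and 1.17 ± 0.14. BATF3, a partner of JUN proteins, was the 1 gene of the list that fell, from 0.898 ± 0.32 to 0.157 ± 0.0558 CPM at day 45.

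Of the MAP kinase phosphatases and feedback inhibitors other than DUSP1, 6 of 18 rose and 8 fell from day 21 to day 45. Of all genes, 27.1% and 30.5% did. On log2(TPM + 1) the list had 3 higher and 10 lower, beside 12% and 48.9% of all genes. By edgeR 11 of 18 fell and 4 rose from day 21 to day 30, beside 27.1% and 27.2% of all genes. From day 30 to day 45, 9 rose and 3 fell, beside 27.6% and 28.7% of all genes. DUSP5, a nuclear phosphatase of ERK, went from 0.775 ± 0.12 to 1.46 ± 0.414 and 8.46 ± 1.17 CPM. DUSP6, the cytoplasmic phosphatase of ERK, fell from 17.2 ± 6.09 to 5.09 ± 1.77 CPM at day 30 (-1.74 ± 0.29, edgeR adjusted p = 9.93e-05) and was at 3.57 ± 1.3 CPM at day 45. SPRED2, an inhibitor of RAS signalling, fell from 54.5 ± 2.91 to 34 ± 3.1 and 28.1 ± 1.24 CPM. DUSP3 rose from 26.7 ± 0.893 to 53.2 ± 2.03 CPM at day 45.

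Among 27 genes of serum response factor and the MAP kinase cascades, 10 rose, 6 fell and 11 did not pass from day 21 to day 45, beside 27.1% and 30.5% of all genes called higher and lower. On the log2(TPM + 1) scale 5 rose and 12 fell, beside 12% and 48.9% of all genes on that scale. MAP2K1, the kinase MEK1, rose from 38.8 ± 3.79 to 90 ± 7.36 CPM, and MAPK3, the kinase ERK1, from 26.9 ± 2.19 to 44.2 ± 3.37 CPM. MAPK11, a p38 kinase, fell from 13.2 ± 1.59 to 6.54 ± 0.729 CPM and RPS6KA1, a ribosomal S6 kinase, from 28.7 ± 4.55 to 16.4 ± 0.884 CPM.

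Of 15 classical AP-1 target genes tested, 11 were higher, 1 lower and 3 not called at day 45 against day 21 (median 1.59), beside 27.1% and 30.5% of all genes. On log2(TPM + 1) 9 were higher and 3 lower (median 0.85), beside 12% and 48.9% of all genes. CD44, the hyaluronan receptor, rose from 16.2 ± 4.89 to 30.4 ± 2.89 and 143 ± 22.3 CPM. MMP3, stromelysin 1, was at 0.101 ± 0.103 CPM at day 21 and 10.4 ± 2.44 CPM at day 45. MMP9, the gelatinase of osteoclasts and other cells, went the opposite way, from 175 ± 26.8 to 24.7 ± 9.31 and 0.593 ± 0.787 CPM. IL6 and CXCL8, the inflammatory targets, averaged below 0.1 CPM.

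Heat shock genes are another group that handling and stress induce. Of 13, 2 rose and 4 fell from day 21 to day 30, beside 27.2% and 27.1% of all genes. On log2(TPM + 1) 2 rose and 11 fell, beside 10% and 50.6% of all genes. From day 30 to day 45, 12 rose and 1 did not pass in edgeR (median 1.11), beside 27.6% of all genes higher and 28.7% lower. Their summed level was 3147 to 3757 CPM at day 21, was 2689 to 3233 CPM at day 30 and reached 5312 to 5965 CPM at day 45. HSPA1B, the inducible HSP70, whose near-identical copy HSPA1A makes its counts uncertain, was at 37.5 ± 3.7, 32.5 ± 8.84 and 152 ± 33.6 CPM. CRYAB, a small heat shock protein, rose from 6.72 ± 2.19 to 74.7 ± 22.2 and 669 ± 74.5 CPM. BAG3, a co-chaperone, rose by 2.05 ± 0.11 (SE) from day 21 to day 45, and DNAJA1 fell by 0.36 ± 0.10. The part of these genes, and of the changes in chondrocyte and other marker lists, in the levels of the AP-1 genes was not tested.

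**Figure D5:**
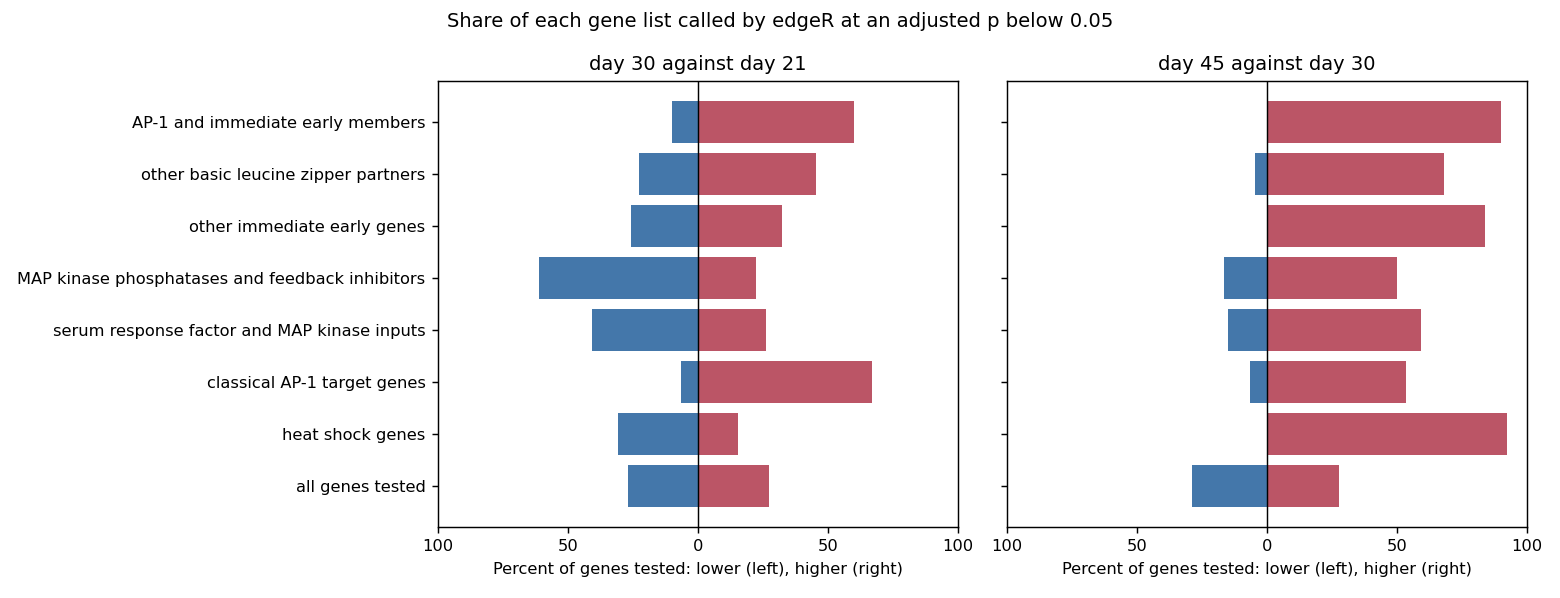
Percent of the genes tested in each list that edgeR called higher (red, to the right) or lower (blue, to the left), for the earlier step (left panel) and the later step (right panel), with all genes tested at the bottom. At the later step 9 of the 10 AP-1 and immediate early genes, 26 of 31 other immediate early genes and 12 of 13 heat shock genes were higher, beside 27.6% of all genes.

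Genes with the most similar course were found by the root mean square difference of centred log2 CPM over the 14 libraries, among 9086 genes of at least 10 CPM. Nearest to FOS were VLDLR, a lipoprotein receptor (0.17), TXNIP, a thioredoxin-binding protein (0.20), and LRRK1, a kinase (0.22). VLDLR averaged 16.5, 47.6 and 109 CPM on the 3 days. Nearest to JUN were LRRFIP1 (0.16), RNF19B (0.17) and ESYT2 (0.17), and LRRFIP1 averaged 38.2, 35.8 and 106 CPM. For EGR1 the nearest were KIF13B (0.24), ARRDC2 (0.26) and F2R, the thrombin receptor (0.26), which averaged 32.2, 16.2 and 34 CPM.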

How the data were processed

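Per the labels' protocols, RNA came from an RNeasy micro kit and libraries from version 2 of the TruSeq RNA kit, which does not mark strand. The submitters' processing notes name STAR 2.4.2a, RSEM 1.2.25 and GRCh38. No annotation release is named there. The deposited tables, per the file headers, hold RSEM's expected counts, TPM (RSEM's abundance per transcript length) and gene length. Expected counts were rounded to whole numbers. Genes were filtered with filterByExpr, libraries scaled by TMM, and 1 model with a mean per day fitted to all 14 libraries with edgeR 4.0.16 (robust quasi-likelihood F-test, R 4.3.3). Benjamini-Hochberg adjustment covered all 17838 genes, with a threshold of 0.05. The SE is the size of the log2 fold change divided by the square root of F. CPM come from the expected counts, and genes are compared with each other in TPM. The fit was tested on simulated data.

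The 10 genes, the lists and the tests were chosen with earlier results of these data known. From each list up to 4 genes with the smallest adjusted p from day 21 to day 45 are named, 2 per direction where both exist, and so are the 3 genes nearest to FOS, JUN and EGR1. For the AP-1 target list, 1 gene that this rule names is not reported here. IL6, CXCL8 and HSPA1A were named after their values were seen. Of the identifiers, 60333 had a symbol, and gene coordinates are those of GENCODE 29 (GRCh38). Alternatives were DESeq2 1.42.0, its size factors in edgeR, limma 3.58.1 on log2(TPM + 1) and log2(TPM + 0.1), no low-count filter or 1 CPM in 4 libraries, only the days compared, a replicate block, leaving out each library or day 30 replicates 3 to 5, placing day 45 replicate 1 at day 30, and an offset smoothed on gene length in each library. Each library counted as 1 sample. Replicate pairs of a day differed by more than sampling noise (chi-square per degree of freedom 7.21 to 155.79 in 26 pairs). Separate preparations of 1 culture can also do so, so this does not show that the libraries were separate cultures. Depth was 18183776 to 33660704 expected counts, and PCR copies were not told apart.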

Additional observations from a re-analysis of the deposited data

How the results depend on the processing

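Among the single-gene values over 25 alternatives, 913 kept their direction and their side of the threshold, 13 came to pass it, 22 no longer did and 42 changed sign, most of them values near 0 that passed under neither setting. JUND from day 21 to day 45 was -0.20 on both TPM scales. From day 21 to day 30 it was -0.42 on both, -0.03 without day 30 replicates 3 to 5 and -0.12 with the length offset. JUN from day 21 to day 30 was -0.32 on log2(TPM + 1) and -0.33 on log2(TPM + 0.1). FOSL2 over that step was 0.48 with the length offset, 0.14 without day 30 replicates 3 to 5, 0.30 with day 45 replicate 1 at day 30, and -0.19 to 0.08 with 1 library left out. The later minus the earlier change was, on log2(TPM + 1) and log2(TPM + 0.1), 0.27 and 0.25 for FOS and 0.76 and 0.75 for ATF3. With the length offset it was 0.13 for FOS, -0.18 for FOSB and 0.23 for ATF3. Without day 30 replicates 3 to 5 it was -0.16 for FOSB, -0.07 for JUNB and 0.26 for ATF3, and with the filter of 1 CPM it was -0.05 for JUNB. With day 45 replicate 1 at day 30 it was -0.48 for FOSB, -2.41 for FOSL1, -0.77 for JUNB, -0.05 for JUND and -0.16 for DUSP1. With 1 library left out it ranged from -0.08 to 0.32 for FOSB, -0.10 to 0.13 for JUNB, -0.03 to 0.21 for JUND and -0.34 to 0.08 for ATF3. The genes called lower at day 30 than at day 21 numbered 4 on log2(TPM + 1), 4 on log2(TPM + 0.1), 0 with day 45 replicate 1 at day 30 and 0 without day 30 replicates 3 to 5, against 1. With day 45 replicate 1 at day 30, 5 genes were higher at day 45 than at day 30 and 0 had a larger later change, against 9 and 4. Of all genes tested, 6466 and 6841 were then called in either direction, against 10051 and 9404. On log2(TPM + 1) 8 had a larger later change. The cause of these changes was not tested. Leaving out 1 library at a time gave 8 to 10 genes higher at day 45 than at day 21, 6 higher and 1 lower at day 30 than at day 21, 9 higher at day 45 than at day 30, and 4 with a larger later change.

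The replicate block ended the call of JUND from day 21 to day 45 (0.31, edgeR adjusted p = 0.064) and no other call of the 10 genes. No pairing by replicate number was seen: the deviations of same-numbered libraries correlated at -0.25 to 0.12 in 13 pairs, and those of other libraries at -0.22 to 0.23 in 52. With so few libraries a day, such correlations cannot show that no culture or batch was shared.

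List counts under further alternatives, chosen after seeing the data, moved most on log2(TPM + 1), where the shares of all genes moved too. At day 30 against day 21 limma called 10% of all genes higher and 50.6% lower there, against 27.2% and 27.1% by edgeR. At day 45 against day 21 the shares were 12% and 48.9%, against 27.1% and 30.5%. On log2(TPM + 1), other immediate early genes went from 10 higher and 8 lower at day 30 against day 21 to 3 and 16. Heat shock genes went from 4 lower to 11, and inputs of serum response factor and MAP kinases from 7 higher and 11 lower to 0 and 19. At day 45 against day 21, heat shock genes went from 10 higher to 5 and other immediate early genes from 3 lower to 8. Phosphatases and feedback inhibitors went from 4 higher and 11 lower to 1 and 13 at day 30 against day 21, and AP-1 targets from 10 higher and 1 lower to 4 and 3. With few counts, FOSL1 at day 21 (5 to 18) has the least precise level.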
